A study of Xenopus laevis with 6 samples.

Results

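The neural sox genes examined here are sox2, sox3, sox21, sox11 and sox4, which encode transcription factors with an HMG box (the DNA-binding domain shared by the Sox family). They were chosen by name, with the endings .L and .S that mark the homeologs of the allotetraploid frog Xenopus laevis, and 9 of the 10 names had a row among the 42549 rows of the authors' deposited table. The exception was sox2.S, which is not analysed here. The RefSeq annotation of Xenopus laevis v10.1 has no gene of that name and lists it as a synonym of sox2.L. The samples were double-explants of wild type neuroectoderm from embryos at stage 11.5, made of 2 pieces joined by their inner sides and head to head. They were pinned to agarose for 3 h and were either stretched (3 samples) or left without stretching as controls (3 samples).

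The level of each row is the authors' average log2 CPM (CPM being the reads of a row per 1000000 counted reads) over both groups together. No value of a single sample or group was used, so that a level has no spread between replicates, and stretched and control explants were not compared here. The values were also not divided by gene length. They measure counted reads, and no order of expression between different genes was drawn from them. Rows without a read shared the lowest level, a log2 CPM of -2.08, which was found in 12476 rows and left 30073 rows above it. The next levels up fell on 6 closely spaced values, 1 for each sample in which a single read could lie. A mean of about 8.45 M counted reads per sample was derived from the lowest level. It rests on a prior count (a small number added to the reads of each sample) of 2, the value that these steps give for 6 samples. According to the methods, more reads than this mean were generated for each sample, so that it is not the sequencing depth. The approximate read numbers below follow from this mean and describe counting error only.

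In the early Xenopus embryo, sox2 and sox3 (the SoxB1 group) act as activators that keep ectoderm cells in a neural progenitor state, and sox3 is also supplied maternally. The SoxB2 factor sox21 is a repressor that acts on similar DNA sites and is linked to neuronal differentiation in vertebrates. The SoxC genes sox11 and sox4 are known as regulators of neuronal differentiation and, in mammals, of many other progenitor cells.

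Among the SoxB1 genes, sox3 was counted from both homeologs. Its average log2 CPM was 7.60 for sox3.L, or about 1639 reads per sample. For sox3.S it was 8.07, or about 2266 reads per sample. More reads were counted than in 97.1% (sox3.L) and 98.2% (sox3.S) of the 30073 rows above the lowest level. An uncharacterised long noncoding RNA gene, LOC121397027, overlaps sox3.L in the RefSeq annotation and stood at an average log2 CPM of -1.49. The library kit named in the labels is not described there as keeping strand, so that reads from such overlapping genes may not be told apart. The row of sox2.L stood at an average log2 CPM of 5.84, about 480 reads per sample, above 87.8% of those rows in counted reads. Summed over homeologs, sox3 had 463 CPM and sox2.L alone had 57.1 CPM.

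The SoxB2 gene sox21 was detected at low read numbers. Its average log2 CPM was 2.25 for sox21.L and 1.73 for sox21.S, that is about 38.3 and 26.1 reads per sample. In counted reads, 55.0% of the rows above the lowest level lay below sox21.L and 51.0% below sox21.S, and both homeologs together had 8.10 CPM. Both rows were thus near the middle of the rows with reads, whose median log2 CPM was 1.62. Among rows with reads named .L or .S they stood lower, with sox21.L above 42.5% and sox21.S above 37.9%.

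Of the SoxC genes, sox11 had an average log2 CPM of 6.86 (sox11.L, about 981 reads per sample) and 6.67 (sox11.S, about 858 reads per sample). These rows were above 94.3% and 93.3% of the rows with reads, and together they had 218 CPM. The other SoxC gene, sox4, had an average log2 CPM of 2.70 for sox4.L, about 52.8 reads per sample, and 3.89 for sox4.S, about 124 reads per sample. They lay above 58.9% and 70.1% of the rows with reads, and their sum was 21.4 CPM. In all, 6 of the 9 rows were above a log2 CPM of 3, and the 3 below it were sox21.L, sox21.S and sox4.L. As background, this limit lies between sox4.L and another sox row, sox7.L (3.16), which were above 58.9% and 63.3% of the rows with reads. Among rows with reads named .L or .S, sox4.L and sox4.S were above 47.1% and 60.8%. Counts of rows above 3, here and for the lists below, are descriptions and were not tested against these shares.

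**Figure D1:**
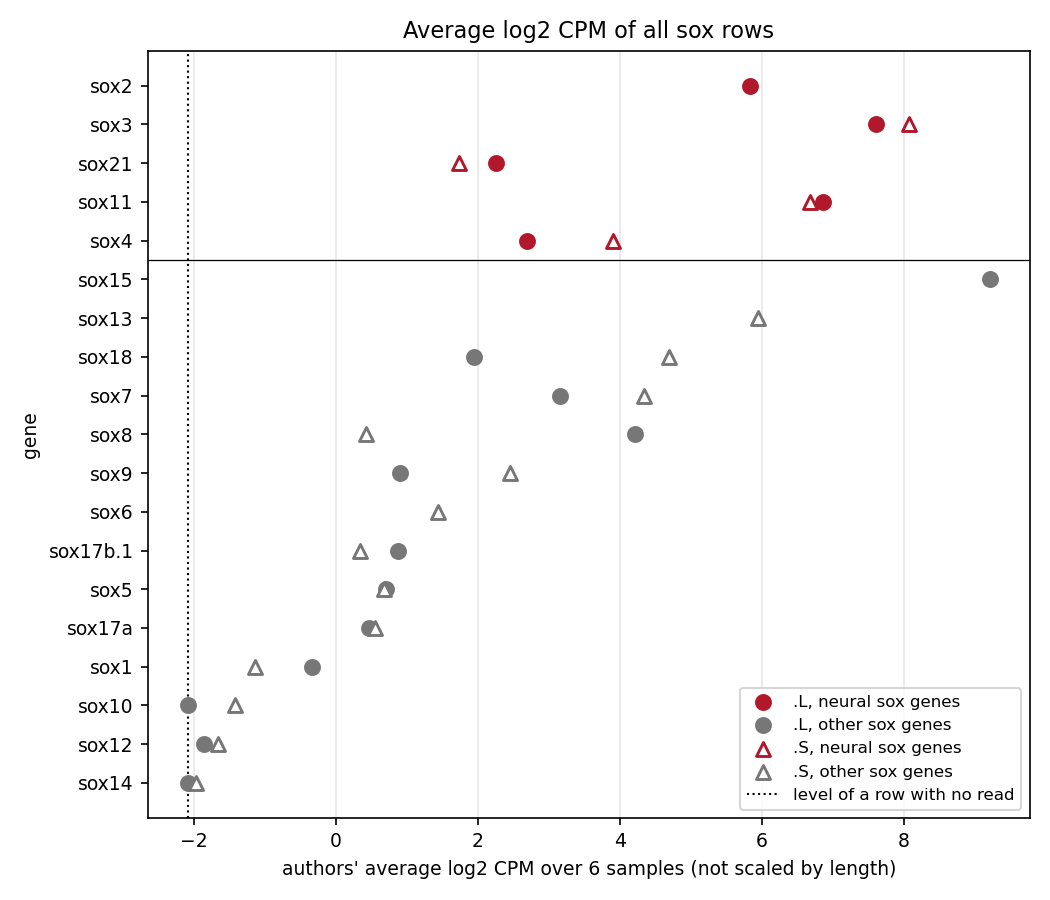
Average log2 CPM (horizontal axis, over 6 samples, not scaled by length) of every sox row, by gene (vertical axis), with filled circles for .L, open triangles for .S, red for the neural sox genes and grey for the other sox genes. The dotted line is the level of a row with no read (-2.08), and no error bars are drawn because no value per sample was used; the sox3 and sox11 homeologs lie between 6.67 and 8.07 and those of sox21 between 1.73 and 2.25.

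How evenly the reads of a gene were divided between its homeologs was examined for the 4 genes with both rows. The difference in average log2 CPM, .L minus .S, was -0.47 for sox3, 0.52 for sox21, 0.19 for sox11 and -1.197 for sox4. The average CPM was thus higher in the .S row of sox3 (1.38-fold) and sox4 (2.29-fold) and in the .L row of sox21 (1.43-fold) and sox11 (1.14-fold). The shares of reads that follow were taken after the level of a row with no read had been subtracted. The .L row held 42.0% of the reads of the sox3 pair (95% exact Clopper-Pearson interval 41.3 to 42.6), taken over about 23432 reads in the 6 samples. For sox4 it held 29.96% of about 1058 reads (27.2 to 32.8). Its part was 53.4% of about 11030 reads for sox11 (52.4 to 54.3) and 59.4% of about 387 reads for sox21 (54.4 to 64.4). None of these 4 intervals includes an even division, but they cover counting error alone, and the spread between samples is unknown. Reads that fit both homeologs could have been counted for either or left out, and how they were treated is not known. If left out, the shares would rest only on stretches that differ between the homeologs. A difference in length between the rows would also move these values. In the sox3 pair, another annotated gene (LOC121397027) overlaps the .L row but none overlaps the .S row, which could move the share of sox3. The part of these sources in the differences was not tested.

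The same difference was taken over all homeolog pairs as a background. Of the 6666 pairs with both rows above the lowest level, the median absolute difference was 1.06, and .L was above .S in 56.3%. Only for sox4 was the absolute difference (1.197) above this median. A larger absolute difference than that of sox11 was found in 88.2% of the 6665 other pairs. The corresponding shares were 73.8% for sox3, 71.2% for sox21 and 45.7% for sox4. The homeologs of sox3, sox21 and sox11 were therefore closer to each other in counted reads than those of most pairs, which is a description without a test.

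**Figure D2:**
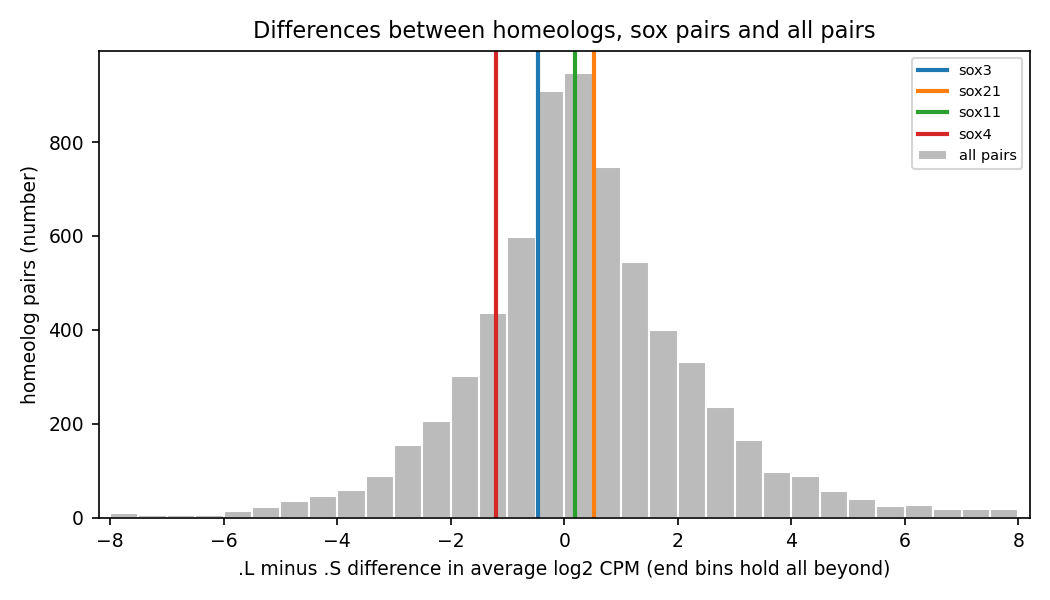
Number of homeolog pairs (vertical axis) by the .L minus .S difference in average log2 CPM (horizontal axis, bins of 0.5), for the 6666 pairs with both rows above the lowest level (grey bars). Coloured lines mark sox3 (-0.47), sox21 (0.52), sox11 (0.19) and sox4 (-1.197), of which sox4 lies farthest from 0.

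The gene order around the rows, taken by name from the RefSeq annotation, was partly shared between homeologs. Among the 3 protein-coding genes on each side, sox4.L and sox4.S had 5 in common (mboat1, e2f3, prl.1, nrsn1 and dcdc2). The sox3 pair had 4 in common (bcorl1, thrsp, tspan6 and slitrk4), the sox11 pair had 3 (cmpk2, rsad2 and rnf144a) and the sox21 pair had 1 (gpr180). Neighbours with LOC names, present beside sox3.S and the sox11 and sox21 rows, could not be matched by name. The numbers in common are therefore lower limits. Neighbours did not have one common level. Beside sox11.L, the 6 neighbours ranged from a log2 CPM of -2.08 to -0.17, whereas those of sox11.S ranged from -2.08 to 6.46 (rps7.S, a ribosomal protein gene). Those of sox4.L ranged from -1.96 (the prolactin-related prl.1.L next to it) to 7.74 (e2f3.L, a cell cycle regulator, on its other side). The 6 neighbours of sox2.L ranged from -1.86 to 6.95, and both adjacent genes, atp11b.L and fxr1.L, were at the upper end (6.95 and 6.91). For the other 5 rows, the lowest neighbour stood between -2.08 and -1.66 and the highest between 3.33 (beside sox21.S) and 7.81 (beside sox3.L).

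The other sox genes of the table form the family around these members. They comprised 25 rows of 14 genes, of which 6 rows were above a log2 CPM of 3, 11 lay from 0 to 3, 6 were below 0 but above the lowest level, and 2 were at the lowest level. As background, the limit of 0 lies between sox1.L (-0.34) and sox17b.1.S (0.34), which were above 34.5% and 40.0% of the rows with reads. Counts of rows above or below 0, here and for the lists below, were not tested against these shares. The 6 rows above 3 were sox15.L (9.20, about 4978 reads per sample), sox13.S (5.95), sox18.S (4.68), sox7.S (4.34), sox8.L (4.21) and sox7.L (3.16), all as average log2 CPM. The gene sox15 is listed in RefSeq with the synonym soxd, a neural-inducing factor of Xenopus ectoderm, whereas sox7 and sox18 are SoxF genes known from endothelium and, for sox7, from maternal transcripts.

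The closest relatives of the members within each group had few reads. The SoxB1 gene sox1 had an average log2 CPM of -0.34 (sox1.L) and -1.14 (sox1.S), about 4.67 and 1.83 reads per sample. The SoxC gene sox12 had -1.86 (sox12.L) and -1.66 (sox12.S), under 1 read per sample in both rows. Of the SoxB2 gene sox14, sox14.S stood at -1.96, the level of a single read in 1 sample. No read was counted for sox14.L or for sox10.L, a neural crest gene, which allows up to 0.0592 CPM (3 reads over the 6 samples). The other homeolog, sox10.S, stood at -1.41, about 1.17 reads per sample.

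Genes that act with the members or follow them were listed beside them. Of 27 rows of 15 neural plate genes, 21 were above a log2 CPM of 3, and their median was 5.45. The zinc finger genes sall4.L and sall4.S had the most reads among them (7.83 and 7.38). The row hesx1.S of an anterior homeobox gene had the fewest (-1.02), with hesx1.L at 1.69. Of 11 rows of pou genes, whose proteins can bind DNA together with Sox factors, 6 were above 3. The Oct4-related genes pou5f3.1.L and pou5f3.2.L stood at 10.30 and 10.02 in average log2 CPM. The gene pou3f1, of later neural tissue, stood at -1.27 (pou3f1.S) and 0.20 (pou3f1.L).

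Of 18 rows of proneural and neuronal genes, 5 were above 3 and 9 were below 0, with a median log2 CPM of 0.07. The RNA-binding protein gene elavl3.L (6.80) and the Notch ligand gene dll1.S (5.31) had the most reads. No read was counted for neurod4.S, a neuronal differentiation gene. The factors neurog2.L and neurog2.S, which drive primary neuron formation, stood at 1.37 and 0.78.

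Markers of the labelled tissue were present. All 15 rows of the neuroectoderm markers were above a log2 CPM of 0, from 1.39 (the adhesion molecule gene ncam1.S) to 8.07 (sox3.S), with a median of 5.84. As background, a row at 0.34 (sox17b.1.S) was above only 40.0% of the rows with reads, so that most such rows also passed 0. The neuroectoderm list is not separate from the rows above, since 12 of its rows are also in the neural plate list and the other 3 are sox2.L, sox3.L and sox3.S. Markers of other cell types were present too. The 17 rows of epidermal markers had a median log2 CPM of 7.90, with 16 above 3. The epidermal regulators grhl3.L and grhl3.S stood at 9.23 and 9.14, and the keratin rows krt12.4.L and krt12.4.S at 9.11 and 8.18. The row tp63.L stood at -1.41 and tp63.S at 3.11. Some of these genes, such as tfap2a, are also used at the neural plate border. Among the mesoderm markers, 4 of 7 names had rows (no row carried the exact name chrd, myod1 or noto). Of the 7 rows found, tbxt.S (6.79) and tbxt.L (5.84) were above 3. The paper places tbxt at this stage in outer layers of the marginal zone, which the explants contained. The presomitic gene msgn1 was at -0.34 (msgn1.S) and 1.21 (msgn1.L). Of 10 endoderm marker rows, foxa4.L (6.12) and foxa4.S (5.45) were above 3. The gene foxa4 is known from the dorsal midline, so that its rows do not mark endoderm by themselves. The next row of this list was gata4.S (1.26). The defining endoderm genes were low, with sox17a.L at 0.47, sox17a.S at 0.55 and mixer.S at -0.96. The listed name sox17b had no row, but rows named sox17b.1.L (0.88) and sox17b.1.S (0.34) exist outside the list. Of 13 organizer rows, 1 was above 3, lhx1.S (3.59), followed by fst.L (2.34), and nog.S was lowest (-0.81, with nog.L at 1.79). In bulk RNA, fewer cells of a type and less RNA per cell cannot be told apart, so that the part of the neural sox reads that came from each cell type was not tested.

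**Figure D3:**
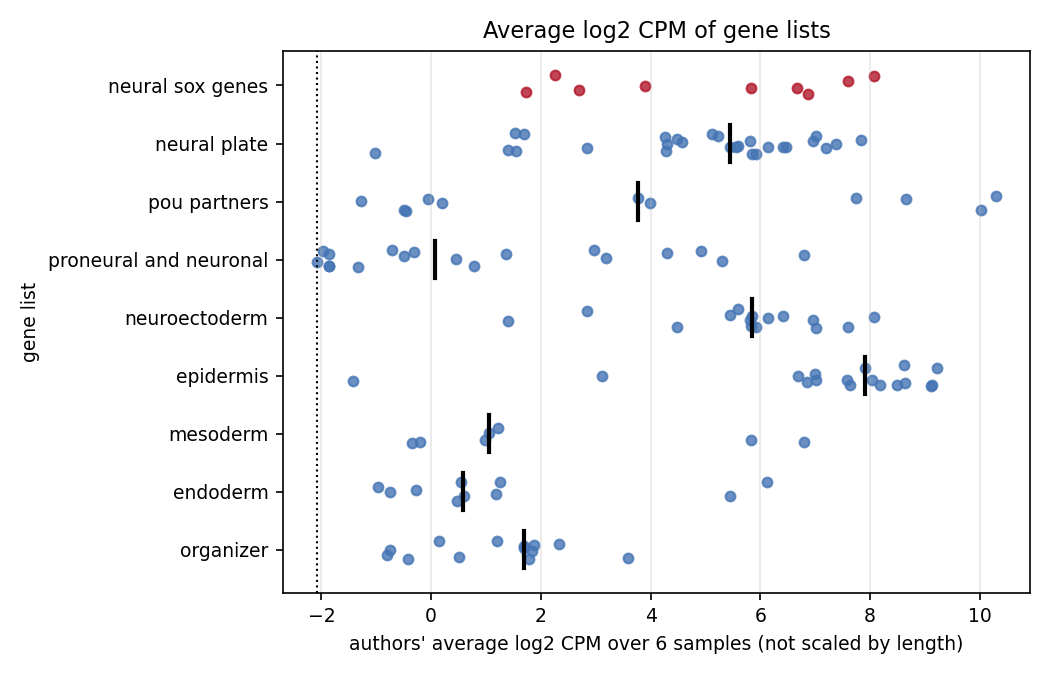
Average log2 CPM (horizontal axis, over 6 samples, not scaled by length) of the 9 neural sox rows (red) and of each gene list (blue, 1 point per row, shifted up or down only for legibility), with a black bar at each list's median and a dotted line at the level of a row with no read. The neural sox rows run from 1.73 to 8.07; the medians run from 0.07 (proneural and neuronal) to 7.90 (epidermis), and the neuroectoderm list consists of 12 neural plate rows and of sox2.L, sox3.L and sox3.S.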

How the data were processed

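RNA-seq libraries were prepared from poly(A) RNA of 3 control and 3 stretched samples. According to the methods, the authors mapped reads with STAR and computed fold changes with DESeq2. Other tools (edgeR, DESeq, HTSeq and TopHat2, all without a version) are listed in the submitters' processing notes. The genome build is not given in the sources used here. From the table, only the average log2 CPM that the authors deposited was analysed. The other 4 columns of values hold the authors' own comparison of stretched with control explants (log2 fold change, F, p-value, FDR) and were not used, so no test between groups was made.

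All 17455 LOC names of the table, and 93.9% of all names, match the RefSeq annotation of Xenopus laevis v10.1 (2560 of the 2588 others are tRNA names), which was used only for names and gene order. The mean number of counted reads per sample was derived from the lowest level, with the prior count of 2 per sample that the step of a single read gives for 6 samples. The number of counted reads of each sample is unknown. A name that occurs in 2 rows was left out of the pairs. Computations used Python 3.11.15, pandas 2.3.3, numpy 2.4.6 and scipy 1.17.1, and matplotlib 3.10.9 for plots.

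The members and lists were chosen with earlier results of these data known. All members were named, other sox rows above a log2 CPM of 3, and from each list the 2 highest rows and the lowest one. The rows of sox1, sox10, sox12, sox14, sox17a, sox17b.1, neurog2 and krt12.4 and the neighbouring genes were added with their values known. So were the other homeologs of hesx1.S, pou3f1.S, tp63.L, msgn1.S and nog.S. As alternatives, other sets of rows or pairs as background were tried, and the level of a row with no read was subtracted.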

Additional observations from a re-analysis of the deposited data

How the results depend on the processing

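No paired analysis was possible because no value of a single sample was used, and for the same reason no replicate could be left out. With the level of a row with no read subtracted, the 5 gene totals stayed within their 95% intervals for counting error. The subtracted level is small beside these intervals, so that this outcome followed from the read numbers and is no separate check. The 4 homeolog differences became -0.467 for sox3, 0.552 for sox21, 0.194 for sox11 and -1.228 for sox4. Their intervals were computed after the same subtraction, so that these values lie within them by construction. The differences as deposited also lay within these intervals. The share of rows below each member depends on the rows counted. Over all rows it was 91.4% for sox2.L, 97.9% for sox3.L, 98.7% for sox3.S, 68.2% for sox21.L, 65.3% for sox21.S, 96.0% for sox11.L, 95.2% for sox11.S, 71.0% for sox4.L and 78.9% for sox4.S, since rows without reads lie below every member. Over rows named .L or .S above the lowest level it was 83.6% for sox2.L, 96.1% for sox3.L, 97.6% for sox3.S, 42.5% for sox21.L, 37.9% for sox21.S, 92.2% for sox11.L, 90.8% for sox11.S, 47.1% for sox4.L and 60.8% for sox4.S. Among pairs with both rows above a log2 CPM of 3, a larger difference was found in 67.3% for sox3 and 85.6% for sox11, and above a log2 CPM of 0 in 43.1% for sox4. The pairs of sox21 and sox4 do not reach the former limit. The alternatives that needed transcript or coding lengths, protein sequences or transcript sequences were not run, because these were not analysed here.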

Other observations

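The low values of the table show how many libraries its average covers. The rows just above the lowest level, 2346 in number, lay on 6 distinct values, and the next step up held 21 distinct values, which is the number of ways to place 2 reads in 6 libraries. A single read raised the average by 8.33% over the lowest level. With 6 libraries this corresponds to a prior count of 2.00 for each, but the step alone does not give the number of libraries. That number rests on the 6 and 21 distinct values. By these, all 6 samples entered the average log2 CPM from which the sox levels were taken.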
